A study of Homo sapiens with 21 samples.

Results

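The comparison described here sets cultures collected 48 h after the start of a doxycycline pulse (Dox 48 h) against the cultures from which the experiment began (day 10), and so measures the net change of the pulsed cells over 48 h. The libraries were chosen by their labels alone: the 3 Dox 48 h and the 3 day 10 libraries, 6 of the 21 in the series. Of 61268 features in the count table, 19655 had enough reads to be tested. All cultures were H9, a human embryonic stem cell line also called WA-09, carrying one inducible construct, TRE3G 2xFLAG-GSX2 WT, in which the TRE3G promoter drives wild-type GSX2 with a FLAG tag when doxycycline is present. They were differentiated in Essential 6 medium with LDN193189, SB431542 and XAV939, then LDN193189 and SB431542, then IWP2 and Activin A, toward progenitors of the lateral ganglionic eminence (LGE). Day 10 cultures had no doxycycline. Dox 48 h cultures received 100 ng/mL doxycycline for 12 h from day 10 and were then kept without it, and NoDox 48 h cultures, the reference at equal age, received none. The labels do not say whether the line is 1 clone, whether replicates were separate cultures, or whether cells were pooled, and p-values therefore speak only of the spread among these libraries, which may be technical. Doxycycline was not given to cells that lack the transgene, so the effects of drug and transgene cannot be told apart.

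The LGE is the part of the embryonic ventral telencephalon that makes striatal projection neurons and olfactory bulb interneurons. GSX2 is the homeobox factor that patterns it: it holds back dorsal pallial regulators such as EMX2 and the neurogenins, and it acts ahead of the DLX genes, which in turn direct a GABAergic neuron programme. Progenitors of the ventricular zone divide, pass through intermediate progenitor states and leave the cell cycle as neurons, so patterning, cycling and neuronal genes all move in a differentiating culture. In bulk RNA, fewer cells of a type and less RNA per cell cannot be told apart.

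Total counts ran from 14.4 to 22.4 M in the day 10 libraries and from 18.1 to 20.9 M in the Dox 48 h libraries. A gene with 0 reads could lie as high as 0.211 CPM, the count scaled to library size with TMM factors, in the shallowest library, from 3 counts and for counting error only. Day 10 replicate 1 stood apart: compared with the other day 10 libraries it gave chi-square values per degree of freedom of 11.5 and 15.6, while those 2 gave 2.34 between them. Levels below are CPM, differences are log2 fold changes with an approximate standard error, n = 3 libraries a group, and a gene is said to have risen or fallen where edgeR's quasi-likelihood test gave a Benjamini-Hochberg adjusted p below 0.05 over all genes tested. CPM values are not scaled by gene length and are compared only within a gene.

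By 48 h GSX2 RNA was below its day 10 level in the pulsed cultures. GSX2 (chromosome 4, 54099523 to 54102498, hg38) stood at 12.2, 8.36 and 7.78 CPM in the day 10 libraries and at 2.03, 1.91 and 1.94 CPM in the Dox 48 h libraries. Every pulsed library lay below every day 10 library, and GSX2 fell by 2.23 ± 0.32 on the log2 scale (adjusted p = 1.21e-05), while NoDox 48 h cultures held 13.2, 10.6 and 9.42 CPM. Reads counted for GSX2 may include reads of the transgene. The transgene feature stood at 0.352, 0.308 and 0.265 CPM at day 10 and at 0.877, 0.955 and 0.970 CPM at Dox 48 h, from 5, 7 and 6 reads and from 16, 18 and 16 reads. Its libraries did not overlap, but the difference did not pass the test (1.61 ± 0.71, adjusted p = 0.0636). It passed with DESeq2's Wald test (adjusted p = 0.0031), with a fit of only the groups compared (0.00286) and on the deposited normalized values (0.0204).

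Between day 10 and Dox 48 h, 10850 genes (55.2% of those tested) differed from day 10, 5550 of them higher (28.2%) and 5300 lower (27%). By at least 2-fold, 1163 genes were higher (5.92%) and 1278 lower (6.5%). The median log2 fold change of all genes was 0.01, and 51.2% of the genes called were higher. With library totals in place of TMM factors the median moved to -0.15, and 3765 genes were called higher and 7169 lower, so that 34.4% of calls were higher. Against NoDox 48 h the pulsed libraries differed in fewer genes, with 379 changed by at least 2-fold in either direction (1.93%) against 2441 from day 10 (12.4%). Against the uninduced cultures at 12 h this number was 3943 (20.1%) and at 24 h it was 2153 (11%).

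**Figure D1:**
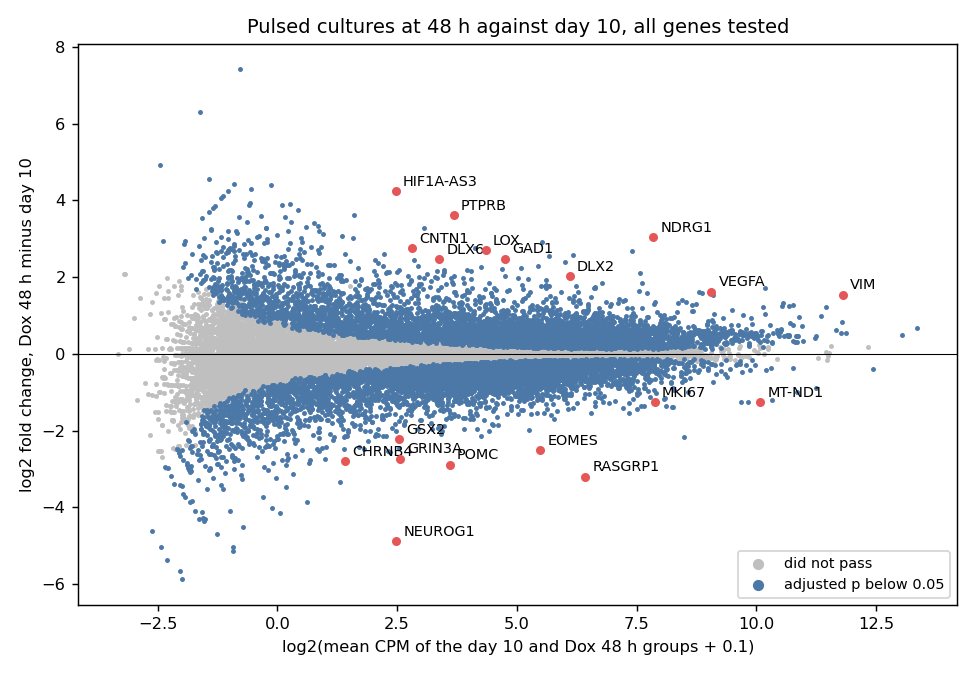
Log2 fold change of Dox 48 h over day 10 (vertical axis) for the 19655 genes tested, with n = 3 libraries a group. The horizontal axis is the log2 of the mean CPM of both groups, with a small offset added. Genes past the threshold spread evenly above and below 0 (5550 and 5300), and the labelled genes are among those described in the text.

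Among the steepest rises, several genes passed the minimum of 2 CPM only through the Dox 48 h group. PTPRB, a receptor tyrosine phosphatase best known from endothelium (chromosome 12, 70515870 to 70637440), stood at 1.83, 1.76 and 2.12 CPM at day 10 and at 20.9, 23.0 and 26.8 CPM at Dox 48 h. No library of one group came near the other, and the rise was 3.62 ± 0.17 (adjusted p = 1.1e-15). NDRG1, a gene induced by low oxygen and by differentiation, rose from 56.2, 50.2 and 44.5 CPM to 392, 416 and 426 CPM (3.04 ± 0.13, adjusted p = 9.69e-14). Both were already high in NoDox 48 h cultures, at a mean of 14.6 CPM for PTPRB and 380.2 CPM for NDRG1. Between Dox 48 h and NoDox 48 h PTPRB passed the test (0.69 ± 0.13) and NDRG1 did not (0.11 ± 0.11). NDUFA4L2, a low-oxygen-induced mitochondrial protein, rose from 1.61 to 14.8 CPM (3.29 ± 0.29), and LOX, the collagen cross-linking lysyl oxidase, from 5.49 to 35.1 CPM (2.7 ± 0.22). CNTN1, a neuronal adhesion protein, rose from 1.82 to 12.1 CPM (2.76 ± 0.21). NoDox 48 h stood at 12.8 CPM for NDUFA4L2, 31.5 CPM for LOX and 9.84 CPM for CNTN1, and none of these passed against Dox 48 h. The core histone gene H2AC6, one of a family of near-identical genes that makes its count uncertain, rose from 4.55 to 30.4 CPM (2.76 ± 0.18). Its NoDox 48 h mean was 16.9 CPM, and Dox 48 h passed as higher. HIF1A-AS3 had the largest rise of the genes named by size (0.558 to 10.3 CPM, 4.24 ± 0.26). NoDox 48 h stood at 8.21 CPM for HIF1A-AS3, which did not pass between Dox 48 h and NoDox 48 h. It lies opposite HIF1A, and since the strand setting of the counting is not given in the sources used here, reads of the partner genes cannot be told apart. Reads of PCBP2-OT1 (2.71 ± 0.32) may likewise not be told apart from those of genes that overlap it. The other 6 genes with the steepest rises were at or below 0.309 CPM at day 10 and between 2.06 and 2.92 CPM at Dox 48 h: NELL1 (3.89 ± 0.45), COX4I2 (3.74 ± 0.56), ACOXL (3.44 ± 0.41), HSF4 (3.41 ± 0.40), FAM153A (3.30 ± 0.43) and CDH22 (2.92 ± 0.39). Of these, HSF4 and FAM153A did not pass between Dox 48 h and NoDox 48 h, and the others were higher in Dox 48 h.

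Among the steepest falls were genes of dorsal neurogenesis and of receptor signalling. Several passed the minimum of 2 CPM only through the day 10 group. NEUROG1, a proneural factor that starts neurogenesis in the dorsal telencephalon (chromosome 5, 135534282 to 135535964), stood at 11.8, 9.42 and 10.6 CPM at day 10 and at 0.164, 0.637 and 0.242 CPM at Dox 48 h. Its groups were far apart, with a fall of 4.87 ± 0.25 on the log2 scale (adjusted p = 3.7e-15). RASGRP1, a calcium- and diacylglycerol-responsive activator of RAS (chromosome 15, 38488103 to 38565575), went from 128, 164 and 173 CPM to 15.8, 19.6 and 15.4 CPM. The fall was 3.19 ± 0.11 on the log2 scale (adjusted p = 3.43e-16), while NoDox 48 h libraries held 129, 141 and 137 CPM and did not pass against day 10. POMC, the precursor of melanocortin peptides, fell from 21.1 to 2.83 CPM (-2.88 ± 0.20), and GRIN3A, an NMDA receptor subunit, from 10.1 to 1.55 CPM (-2.73 ± 0.22). CHRNB4, a nicotinic receptor subunit, fell from 4.44 to 0.668 CPM (-2.79 ± 0.28), and SUSD2, a sushi-domain membrane protein, from 8.30 to 1.46 CPM (-2.52 ± 0.17). ALDH1A1, a retinaldehyde dehydrogenase, varied at day 10 (2.82, 0.969 and 2.43 CPM) and lay between 0.110 and 0.318 CPM at Dox 48 h (-3.14 ± 0.77). The cold-sensing channel TRPM8 fell from 2.59 to 0.355 CPM (-2.85 ± 0.39). The glutathione-degrading enzyme CHAC2 fell from 2.64 to 0.371 CPM (-2.78 ± 0.33) and the paraoxonase PON1 from 2.84 to 0.507 CPM (-2.48 ± 0.32). NME5 (3.27 to 0.486 CPM, -2.74 ± 0.28) and RIBC2 (2.07 to 0.320 CPM, -2.66 ± 0.33), 2 genes of cilia and flagella, fell too. NUTM2D (2.96 to 0.504 CPM, -2.52 ± 0.27) and ATP6V0E2-AS1 (4.26 to 0.777 CPM, -2.48 ± 0.24) complete the genes chosen by size. The limit on antisense genes given above applies.

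Regulators of the LGE split. Of 15 tested, 8 rose and 6 fell, with a median of 0.56 against 0.01 over all genes. Counts of this and all later lists stand beside 28.2% higher and 27% lower of all genes tested. Those of NoDox 48 h against day 10 stand beside 21.4% and 20.2%. DLX2, the homeobox gene that follows GSX2 in ventral progenitors (chromosome 2, 172099438 to 172102900), stood at 35.4, 23.9 and 23.0 CPM at day 10 and at 121, 110.4 and 99.4 CPM at Dox 48 h. The pulsed libraries lay above all day 10 and all NoDox 48 h libraries (53.5, 30.6 and 35.6 CPM), with a rise of 2.03 ± 0.28 from day 10 (adjusted p = 1.68e-05). Its neighbour DLX1 rose from 28.6 to 58.5 CPM (1.04 ± 0.23), and SP9, a zinc finger factor of striatal neuron precursors, from 3.55 to 11.8 CPM (1.77 ± 0.40). The TALE homeobox gene MEIS1 rose by 1.19 ± 0.11 and the ventral anterior homeobox gene VAX1 by 0.81 ± 0.10. OLIG2, a bHLH factor of ventral progenitors, rose from 9.12 to 13.5 CPM (0.56 ± 0.12). Of the members that fell, GSX2 is given above, and its relative GSX1 stood at 1.20, 0.748 and 1.02 CPM at day 10 and had 2 reads in the 3 Dox 48 h libraries together. MEIS2 (-0.69 ± 0.09) and ETV1 (-0.40 ± 0.08) fell less. SP8 (179 against 159 CPM) did not keep its call when single libraries were left out.

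GABAergic and striatal neuron genes rose for the most part, with a median of 0.80. Of 22 tested 14 rose and 3 fell, beside 28.2% and 27% of all genes tested. Without Dox 48 h replicate 3 the number that fell was 1. GAD1, which makes GABA (chromosome 2, 170813213 to 170861151), stood at 9.58, 7.53 and 7.78 CPM at day 10 and at 49.9, 43.5 and 44.1 CPM at Dox 48 h. NoDox 48 h libraries lay between the groups at 32.8, 24.1 and 24.6 CPM, and the rise from day 10 was 2.48 ± 0.17 (adjusted p = 1.13e-10). DLX6, a later member of the DLX cascade, rose from 3.24 to 17.4 CPM (2.47 ± 0.21) and its neighbour DLX5 from 6.58 to 31.4 CPM (2.27 ± 0.27). DLX6-AS1, whose locus overlaps DLX6, rose from 46.0 to 294 CPM (2.68 ± 0.41), with the same limit on strand. SLC32A1, the vesicular GABA transporter, rose from 4.02 to 18.2 CPM (2.19 ± 0.22). The neuropeptide gene SST (0.700 to 2.94 CPM), the second GABA-making enzyme GAD2 (1.40 to 3.47 CPM) and BCL11B, a factor of striatal projection neurons (4.54 to 9.10 CPM), rose as well. ISL1, a factor of striatonigral neurons, fell from 3.68 to 2.18 CPM (-0.74 ± 0.22). DRD1, TAC1 and NPY had too few reads to be tested, with 62, 63 and 14 reads over the 21 libraries. In NoDox 48 h, 15 members rose and 3 fell from day 10.

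Dorsal pallial regulators fell for the most part, with a median of -1.41. Of 19 tested 12 fell and 3 rose, beside 27% and 28.2% of all genes tested. EOMES, the T-box factor of cortical intermediate progenitors (chromosome 3, 27715949 to 27722711), stood at 82.9, 71.6 and 74.9 CPM at day 10 and at 13.8, 14.3 and 12.0 CPM at Dox 48 h. NoDox 48 h libraries held 45.7, 51.7 and 48.1 CPM, below day 10 and above every pulsed library, and the fall of the pulsed cultures was 2.51 ± 0.13 on the log2 scale (adjusted p = 2.22e-13). EMX2, which patterns the cortical primordium, went from 309, 279 and 266 CPM to 152, 149 and 134 CPM (-0.97 ± 0.09). Without doxycycline EMX2 had risen, to 405, 354 and 379 CPM. DMRTA2, a factor of the medial pallium, fell from 9.71 to 1.77 CPM (-2.44 ± 0.20), and LHX9, a LIM homeobox factor, from 6.75 to 2.14 CPM (-1.63 ± 0.23). The neuronal factor NEUROD1 fell from 17.9 to 7.66 CPM (-1.22 ± 0.12), against 16 CPM in NoDox 48 h. EMX1 (-1.78 ± 0.28) and BHLHE22 (-2.36 ± 0.44) fell, to 1.73 and 0.268 CPM, and both were also low in NoDox 48 h (1.62 and 0.362 CPM). NEUROG2 averaged 0.767 CPM at day 10 and had 2 reads in the Dox 48 h libraries, and TFAP2C averaged 1.57 and 0.0935 CPM. The deep-layer neuron genes TBR1 (35.9 to 57.9 CPM, 0.69 ± 0.19) and FEZF2 (43.3 to 70.1 CPM, 0.69 ± 0.08) rose. PAX6, which spans the pallium and its border, stood at 216 and 219 CPM and did not pass the test. In NoDox 48 h, 2 members rose and 8 fell from day 10, with a median of -0.20.

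**Figure D2:**
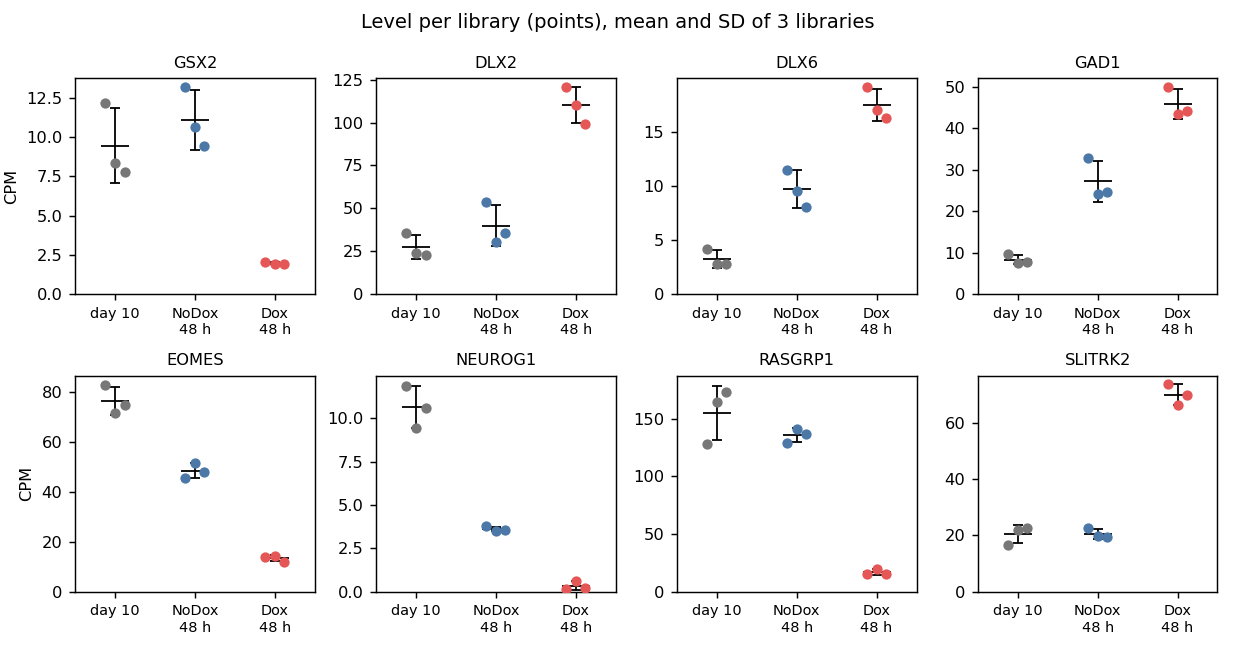
CPM of GSX2, DLX2, DLX6, GAD1, EOMES, NEUROG1, RASGRP1 and SLITRK2 in each library of day 10, NoDox 48 h and Dox 48 h, with the group mean and SD (n = 3). The 3 Dox 48 h libraries lie above all others for DLX2 (99.4 to 121 CPM), DLX6, GAD1 and SLITRK2 and below all others for GSX2, EOMES, NEUROG1 and RASGRP1.

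Genes of G2 and mitosis fell nearly as a block. Of 23 tested, 0 rose and 22 fell, with a median of -0.58, and 0 rose at an unadjusted p under 0.05 in edgeR or with DESeq2's Wald test. HMMR, a spindle-associated hyaluronan receptor, went from 56.9, 55.9 and 59.2 CPM to 22.5, 24.5 and 23.5 CPM. Its groups were wide apart, and NoDox 48 h libraries lay between them with a mean of 44.8 CPM (-1.29 ± 0.07 from day 10, adjusted p = 2.24e-14). ASPM, a spindle pole protein of neural progenitors, fell from 129, 161 and 178 CPM to 61.2, 65.0 and 69.9 CPM (-1.26 ± 0.10). MKI67, which coats mitotic chromosomes, fell from 249, 354 and 395 CPM to 111, 149 and 159 CPM (-1.25 ± 0.18), and the kinetochore protein CENPF from 375 to 169.7 CPM (-1.14 ± 0.08). The mitotic cyclin CCNB1 fell from 189.9 to 109.7 CPM (-0.79 ± 0.08), the spindle motor KIF11 from 117 to 70.6 CPM (-0.73 ± 0.07) and TOP2A, which untangles chromosomes, from 964 to 695 CPM (-0.47 ± 0.08). CCNB2 (128 and 116 CPM) was the member that did not pass. Summed over the list, the level was 4482 to 4644 CPM at day 10, 4617 to 4694 CPM in NoDox 48 h and 2738 to 3057 CPM in Dox 48 h. Without doxycycline 7 members rose and 8 fell (4 without NoDox 48 h replicate 1), with a median of 0.08. Against NoDox 48 h all 23 members were lower in the pulsed cultures, against 8.94% of all genes tested, with a median of -0.70. This count stayed at 23 with library totals and with each replicate left out.

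The promoters of these genes are shown because members that move together often share motifs, and mitotic genes are known for CCAAT boxes and for the cell cycle element TTTGAA. The 250 bases before the RefSeq start (GRCh38.p14) were searched on both strands for CCAAT and for TTTGAA, and matches may overlap. Of 18 promoters matched to the list, 16 held CCAAT (88.9%), against 34.5% of the 12958 promoters of genes tested and 33% of all 27305. TTTGAA was in 10 (55.6%), against 8.69% and 13.6%, and both were in 9 (50%), against 3.52% and 4.85%. Of 16 promoters of S phase and G1 genes, 11 held CCAAT (68.8%) and 1 held TTTGAA (6.25%). The 3 printed here hold both motifs and overlap no exon of the count table. Capitals mark each motif as it reads on either strand. MKI67 lies at chr10:128126424-128126673 (minus strand), KIF11 at chr10:92592880-92593129 (plus strand) and TOP2A at chr17:40417897-40418146 (minus strand). A match describes the letters only.
MKI67: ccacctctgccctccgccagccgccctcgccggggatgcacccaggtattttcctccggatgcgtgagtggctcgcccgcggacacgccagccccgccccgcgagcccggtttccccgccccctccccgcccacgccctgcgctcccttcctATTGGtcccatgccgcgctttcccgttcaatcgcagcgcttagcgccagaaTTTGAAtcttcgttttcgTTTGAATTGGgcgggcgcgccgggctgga
KIF11: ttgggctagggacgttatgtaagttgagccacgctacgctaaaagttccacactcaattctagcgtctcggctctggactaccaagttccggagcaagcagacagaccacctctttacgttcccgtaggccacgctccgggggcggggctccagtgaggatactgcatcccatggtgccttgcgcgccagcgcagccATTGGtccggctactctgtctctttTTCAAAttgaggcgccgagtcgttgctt
TOP2A: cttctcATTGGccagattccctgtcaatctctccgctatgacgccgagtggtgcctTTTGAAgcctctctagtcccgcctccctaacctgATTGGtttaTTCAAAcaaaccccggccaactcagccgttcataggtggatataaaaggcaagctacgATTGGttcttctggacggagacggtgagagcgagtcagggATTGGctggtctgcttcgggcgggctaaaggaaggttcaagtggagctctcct

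MKI67 and TOP2A each hold TTTGAA at 2 places and KIF11 at 1. Their falls from day 10 were 1.25, 0.47 and 0.73 on the log2 scale.

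Genes of S phase and of the G1 cyclins also fell, 19 of 22 tested against 1 that rose, with a median of -0.80. PCNA, the DNA polymerase clamp, went from 159, 134 and 125 CPM to 43.7, 50.7 and 48.1 CPM (-1.55 ± 0.10, adjusted p = 1.78e-12). NoDox 48 h libraries were also far below day 10, at 61.5, 66.9 and 64.1 CPM. The G1 cyclins CCNE2 (6.82 to 2.10 CPM, -1.69 ± 0.20) and CCNE1 (13.4 to 4.35 CPM, -1.62 ± 0.12) and the licensing factor CDC6 (36.9 to 15.1 CPM, -1.29 ± 0.13) fell. CCND2, a cyclin of cortical basal progenitors, was the member that rose (191 to 359 CPM, 0.91 ± 0.06). In NoDox 48 h 1 rose and 20 fell, with a median of -0.71, so this list had fallen in both arms. Between the arms 2 members were higher and 4 lower with the pulse, beside 9.23% and 8.94% of all genes tested, and the 4 became 2 without Dox 48 h replicate 1 or NoDox 48 h replicate 2. Among 10 cell cycle inhibitors, CDKN1A (0.66 ± 0.09) and CDKN1B (0.47 ± 0.08) rose. CDKN3 (-1.01 ± 0.19) and CDKN2C (7.0 to 4.70 CPM, -0.56 ± 0.16) fell, and CDKN2C was at 11.3 CPM in NoDox 48 h.

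**Figure D3:**
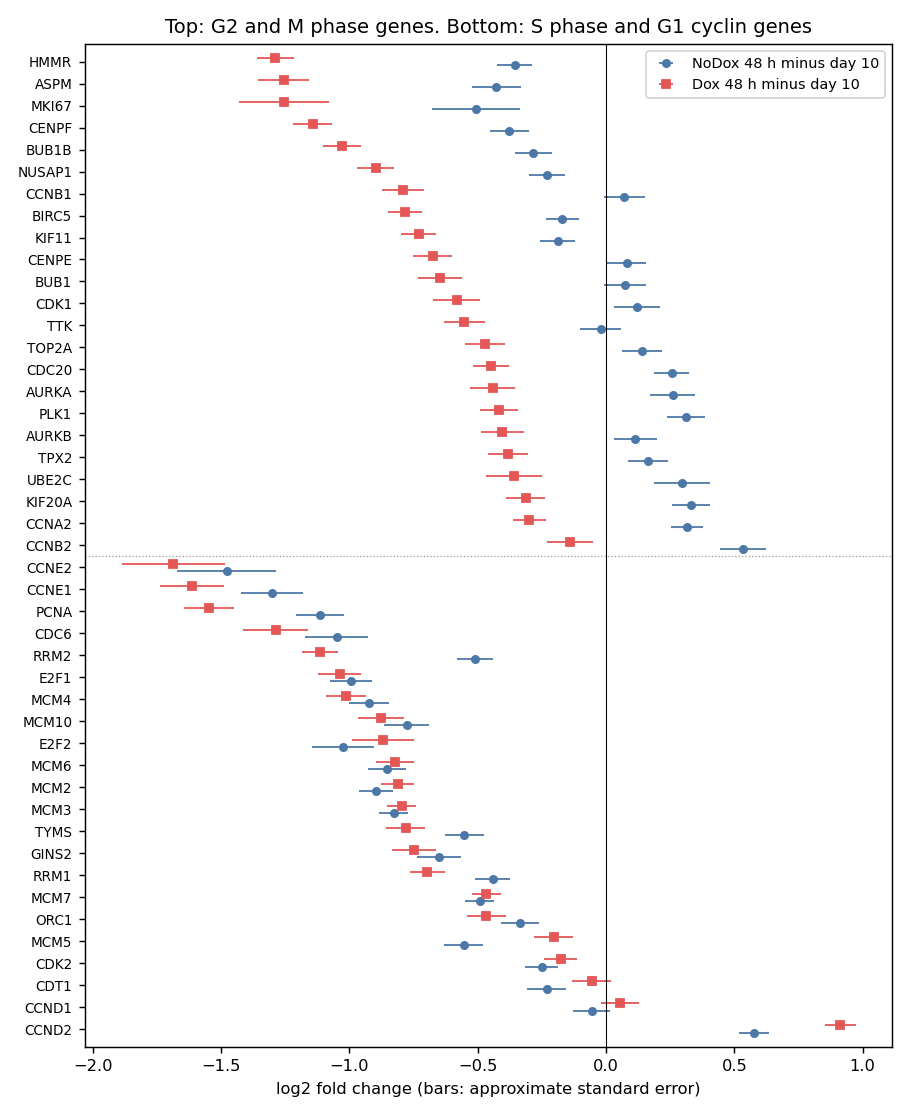
Log2 fold change from day 10 in NoDox 48 h and in Dox 48 h for each gene of G2 and M phase (top) and of S phase and G1 (bottom), with bars for the approximate standard error. In the top panel the Dox 48 h points lie below the NoDox 48 h points for all 23 genes, and in the bottom panel most genes are below 0 in both.

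Hypoxia and glycolysis genes rose, 20 of 21 tested against 0 that fell, with a median of 1.11, and 0 fell at an unadjusted p under 0.05 in edgeR or with DESeq2's Wald test. VEGFA, the vascular growth factor induced by low oxygen (chromosome 6, 43770184 to 43786487), went from 253, 268 and 269 CPM to 858, 762 and 801 CPM. NoDox 48 h libraries were also far above day 10, at 697, 722 and 775 CPM, and the rise of the pulsed cultures was 1.62 ± 0.08 (adjusted p = 1.44e-15). CA9, a carbonic anhydrase used as a marker of low oxygen, rose from 0.720 to 4.41 CPM (2.60 ± 0.30), and the glucose transporters SLC2A3 from 191 to 504 CPM (1.40 ± 0.07) and SLC2A1 from 1019.5 to 2485 CPM (1.29 ± 0.08). PGK1, an enzyme of glycolysis, rose from 676 to 1578 CPM (1.22 ± 0.11), and PDK1, which limits pyruvate entry to mitochondria, from 70.4 to 149.9 CPM (1.09 ± 0.08). EGLN3, an oxygen sensor, did not pass (26.6 and 26.7 CPM), although NoDox 48 h stood at 44.9 CPM. In NoDox 48 h 21 rose and 0 fell from day 10 (0 also unadjusted and with DESeq2), with a median of 1.01. Between the arms, 6 members were higher and 1 lower with the pulse, beside the same 9.23% and 8.94%. The 6 became 1 with library totals and 2 or 3 without any one of Dox 48 h replicates 1, 2 and 3 and NoDox 48 h replicates 1 and 2.

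The core of the hypoxia response element, ACGTG on either strand, was in 9 of the 19 promoters matched to this list (47.4%), against 22.6% of promoters of genes tested and 18.7% of all. The PGK1 promoter, at chrX:78103998-78104247 on the plus strand (RefSeq, GRCh38.p14), is shown because it holds the motif at 2 places and overlaps no exon of the count table. Capitals mark ACGTG on either strand.
PGK1: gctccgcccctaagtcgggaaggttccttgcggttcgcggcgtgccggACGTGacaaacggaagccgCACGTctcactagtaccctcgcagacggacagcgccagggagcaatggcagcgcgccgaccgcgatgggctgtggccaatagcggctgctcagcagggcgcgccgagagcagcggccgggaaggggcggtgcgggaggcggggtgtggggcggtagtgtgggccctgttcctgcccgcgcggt

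PGK1 has near-identical pseudogene copies, so its count is uncertain. Promoters of the list that lie in part in exons of the count table, such as that of CA9, are not shown.

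Transcripts of the mitochondrial genome fell, 12 of 13 tested against 0 that rose, with a median of -1.0, and 0 rose at an unadjusted p under 0.05 in edgeR or with DESeq2's Wald test. These transcripts have near-identical copies in the nuclear genome. MT-ND1, a subunit of respiratory complex I, went from 1509, 1537 and 1535 CPM to 569.5, 710.5 and 638 CPM (-1.26 ± 0.08, adjusted p = 1.6e-13). MT-CO1, a subunit of cytochrome oxidase, fell less, from 6275 to 4759 CPM (-0.40 ± 0.07), and MT-ND4 (3016 and 2705 CPM) did not pass. Reads of the mitochondrial genome made up 2.76 to 2.84% of the counts at day 10 and 1.76 to 1.89% at Dox 48 h. The share in NoDox 48 h was 1.81 to 1.85%, and there 13 members fell and 0 rose (0 also unadjusted and with DESeq2).

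**Figure D4:**
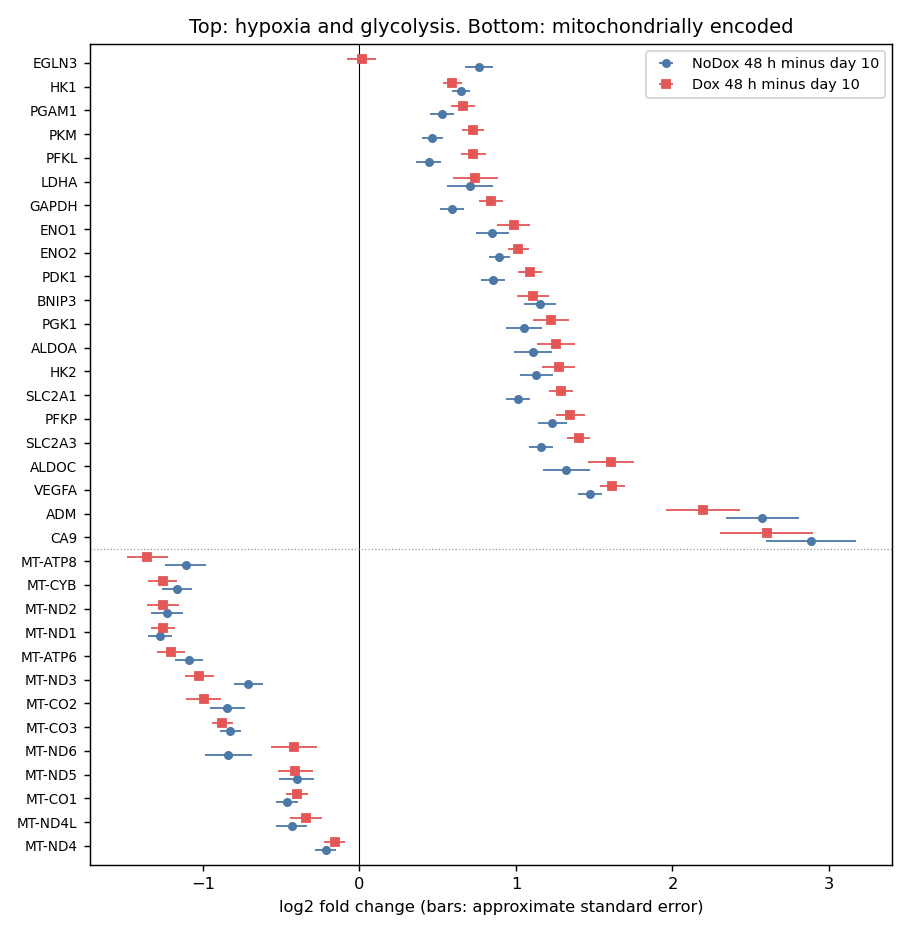
Log2 fold change from day 10 in NoDox 48 h and in Dox 48 h for each hypoxia and glycolysis gene (top) and each mitochondrially encoded protein gene (bottom), with bars for the approximate standard error. Both arms lie above 0 in the top panel, with EGLN3 near 0 in Dox 48 h, and below 0 in the bottom panel.

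Cholesterol synthesis genes rose, 16 of 20 tested against 0 that fell in edgeR's test (0 unadjusted and with DESeq2's Wald test, 2 with library totals), with a median of 0.55. In NoDox 48 h the counts were 16 and 0 (0 also unadjusted and with DESeq2). MVD (0.98) and MSMO1 (0.96), enzymes of the pathway, rose on the log2 scale. Genes of the amino acid stress response under ATF4 went both ways. Of 19 tested 8 were higher and 10 lower, beside 28.2% and 27% of all genes tested. The cystine transporter SLC7A11 fell from 6.51 to 1.53 CPM (-2.14 ± 0.40) and CHAC1, which degrades glutathione, from 4.66 to 1.29 CPM (-1.84 ± 0.22). DDIT3, a factor of the same response, rose from 7.01 to 14 CPM (1.03 ± 0.15), and the lipoprotein receptor VLDLR from 18.9 to 50.9 CPM (1.43 ± 0.07). Of 16 immediate early genes 9 rose and 1 fell (5 fell with library totals), beside the same 28.2% and 27%. MYC rose from 6.57 to 17.1 CPM (1.40 ± 0.13), and FOSB fell from 76.4 to 31.2 CPM (-1.30 ± 0.24).

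Genes of postmitotic neurons rose, 18 of 26 tested against 1 that fell (2 with library totals), with a median of 0.59. DCX, a microtubule protein of migrating neurons (chromosome X, 111293779 to 111412429), went from 236, 240.2 and 258 CPM to 653, 569 and 599 CPM. All pulsed libraries lay above those of NoDox 48 h (489.5, 376 and 382 CPM), and the rise from day 10 was 1.31 ± 0.13 (adjusted p = 1.19e-07). L1CAM, an axonal adhesion protein, rose from 46.7 to 153 CPM (1.71 ± 0.09). The growth cone protein GAP43 rose by 1.45, the synaptic vesicle protein SYN1 by 1.23 and the axonal microtubule protein MAPT by 1.16 on the log2 scale. SYT4, a synaptotagmin, was the member that fell (35.0 to 17.3 CPM, -1.01 ± 0.11). In NoDox 48 h 22 members rose and 1 fell, with a median of 0.58. Of 25 ion channel and synaptic receptor genes, 12 rose and 4 fell, beside 28.2% and 27% of all genes tested. The AMPA receptor subunit GRIA2 rose from 1.57 to 7.48 CPM (2.29 ± 0.33) and the GABA receptor subunit GABRA2 from 2.63 to 10.4 CPM (2.02 ± 0.16). CHRNA3, a nicotinic receptor subunit in 1 gene cluster with CHRNB4, fell from 7.75, 7.13 and 7.38 CPM to 1.86, 1.91 and 1.21 CPM (-2.14 ± 0.17), against 9.08 CPM in NoDox 48 h.

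Progenitor genes were called at rates to be read against the 28.2% higher and 27% lower of all genes tested. Of 24 neurogenesis-initiating genes 6 rose (3 with library totals) and 9 fell, and the bHLH genes NEUROD4 (-2.42 ± 0.32), NHLH1 (64.0 to 27.7 CPM, -1.21 ± 0.08) and HES6 (198 to 120.0 CPM, -0.72 ± 0.07) were among those that fell. MYT1, a zinc finger factor of neuronal commitment, rose from 52.8 to 100.0 CPM (0.92 ± 0.14). Of 18 radial glia genes 7 rose and 4 fell, which became 3 and 9 with library totals. VIM, an intermediate filament of radial glia, rose from 1831 to 5315 CPM (1.54 ± 0.08), and was already at 4687 CPM in NoDox 48 h. The Notch target HES1 rose from 56.7 to 121 CPM (1.10 ± 0.11) while HES5 fell from 205 to 119 CPM (-0.78 ± 0.08). The stem cell factor SOX2 (1019.8 and 1140.5 CPM) and the filament NES (1436 and 1311 CPM) did not pass. Of 16 anterior forebrain regulators 6 rose (3 with library totals) and 6 fell, among them OTX1 (8.91 to 2.83 CPM, -1.64 ± 0.26).

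Signalling genes are given from ligands to targets, and their counts too stand beside 28.2% higher and 27% lower over all genes. Of 29 BMP, Nodal and TGF-beta genes 18 rose and 3 fell, with a median of 0.53. The ligand BMP4 stood at 0.564, 0.264 and 0.619 CPM at day 10 and at 2.08, 2.92 and 3.94 CPM at Dox 48 h (2.64 ± 0.39), above NoDox 48 h (0.531, 1.23 and 0.889 CPM). SMAD7, a feedback inhibitor, rose from 9.62 to 25.2 CPM (1.39 ± 0.11), while ID4, a target of BMP signals, fell from 409 to 212 CPM (-0.95 ± 0.08). Of 27 WNT pathway genes 7 rose (3 with library totals) and 11 fell. The ligand WNT7A rose from 3.72 to 16.3 CPM (2.16 ± 0.30) and its relative WNT7B fell from 266 to 98.1 CPM (-1.44 ± 0.11). The agonist RSPO3 fell from 6.62 to 1.55 CPM (-2.08 ± 0.20), and WNT2B from 23.9 to 11.2 CPM (-1.10 ± 0.12) with 23.3 CPM in NoDox 48 h. Of 22 FGF and ERK feedback genes 11 rose and 4 fell, led by the feedback inhibitor SPRY4 (2.73 to 9.15 CPM, 1.67 ± 0.20). Of 17 Notch genes 9 rose and 5 fell. In the hedgehog group PTCH1, receptor and target of the pathway, rose from 39.7, 40.0 and 40.2 CPM to 63.2, 68.0 and 68.8 CPM (0.74 ± 0.10), against 40.1, 39.8 and 44.5 CPM in NoDox 48 h. NKX2-1, the factor of the medial ganglionic eminence, fell from 1.21 to 0.204 CPM (-2.53 ± 0.54). In the retinoic acid group, 5 of 14 rose and 5 fell, and the retinol receptor STRA6 (6.12 to 15.6 CPM, 1.34 ± 0.12) rose.

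Of 30 axon guidance genes 12 rose and 9 fell, beside 28.2% and 27% of all genes tested, so single members rather than the counts are described for adhesion, guidance and matrix genes. The repellent SLIT3 rose from 2.96, 4.93 and 3.54 CPM to 14.7, 16 and 15.7 CPM (1.99 ± 0.16), against 3.50, 3.17 and 3.50 CPM in NoDox 48 h. ROBO2, a receptor for SLIT proteins, rose from 31.4 to 69.4 CPM (1.15 ± 0.11), and the semaphorin receptor PLXNA2 fell from 34.9 to 9.89 CPM (-1.82 ± 0.10). Of 21 cadherin and protocadherin genes 9 rose and 9 fell. PCDH9 rose from 9.02 to 42.5 CPM (2.22 ± 0.11) and CDH11 from 207 to 441 CPM (1.09 ± 0.06), against 221 CPM in NoDox 48 h. CDH20 fell from 60.9 to 15.5 CPM (-1.97 ± 0.10). Of 25 matrix genes 10 rose and 3 fell, and the basement membrane collagen COL18A1 went from 361, 366 and 365 CPM to 785, 750.3 and 713 CPM (1.04 ± 0.07). COL18A1 lay at 444, 418 and 469 CPM in NoDox 48 h, nearer to day 10 than to the pulsed libraries.

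The change of the pulsed cultures can be set beside that of cultures without the pulse. Both changes use the same day 10 libraries, so the arms were tested directly against each other. NoDox 48 h differed from day 10 in 4215 genes higher (21.4%) and 3973 lower (20.2%). Dox 48 h was higher than NoDox 48 h in 1814 genes (9.23%) and lower in 1757 (8.94%). The first number was 1041 without NoDox 48 h replicate 2 and 1056 without Dox 48 h replicate 1. With library totals the counts between the arms were 1017 and 2835 (26.4% of calls higher, against 50.8%), and for NoDox 48 h against day 10 they were 3176 and 5174 (38% against 51.5%). SLITRK2, a synaptic membrane protein, overlapped between day 10 (16.8, 21.8 and 22.6 CPM) and NoDox 48 h (19.3 to 22.7 CPM) and stood at 73.8, 66.2 and 70.0 CPM in Dox 48 h. The pulsed libraries lay above both, with a rise of 1.76 ± 0.10 from day 10 and of 1.76 ± 0.10 over NoDox 48 h (adjusted p = 2.22e-12). GRIP2, a scaffold of glutamate receptors, was higher by 2.26 ± 0.17 than in NoDox 48 h, SLIT3 by 2.19 ± 0.16, ACOXL by 2.11 ± 0.34 and COL6A3, a collagen VI chain, by 2.56 ± 0.42. Lower than in NoDox 48 h were RASGRP1 (-3.00 ± 0.11, adjusted p = 8.3e-15), NEUROG1 (-3.33 ± 0.29), CHRNB4 (-2.71 ± 0.28) and EOMES (-1.86 ± 0.13). Of 15 LGE regulators 4 were higher and 5 lower than in NoDox 48 h, beside 9.23% and 8.94% of all genes tested. Of 22 GABAergic and striatal neuron genes 6 were higher, 2 lower and 14 did not pass. DLX2 was higher by 1.47 ± 0.27, DLX1 by 1.21 ± 0.23, SLC32A1 by 0.98 ± 0.20, DLX6 by 0.85 ± 0.18 and GAD1 by 0.75 ± 0.15. GSX2 (-2.49 ± 0.31) and GSX1 (-2.72 ± 0.84) were lower, and DLX5, DLX6-AS1 and SP9 did not pass. PCP4, a calmodulin-binding protein of striatal neurons, was lower (-1.14 ± 0.14), having risen to 23.0 CPM in NoDox 48 h and to 10.5 CPM in Dox 48 h from 7.07 CPM at day 10. In 77 of the 19655 genes tested the arms had moved from day 10 in opposite directions and differed from each other. Of these, 22 were higher and 55 lower in Dox 48 h than at day 10. EMX2, CCNA2 and CDKN2C are among them, since each had risen without doxycycline and fallen with it.

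Markers of other cells were checked for what the cultures could hold besides telencephalic progenitors and neurons. The lists are short, and their counts stand beside 28.2% higher and 27% lower of all genes tested. The pluripotency genes POU5F1, NANOG and TDGF1 had 50, 51 and 1 reads over all 21 libraries, and 5 of the 6 tested members of that list fell (summed level 387.1 to 410.9 CPM at day 10 and 330.1 to 349.3 CPM at Dox 48 h). Mesoderm and endoderm markers rose in 2 of 5 tested, both lost with library totals, at a summed 4.93 to 6.60 and 7.33 to 9.08 CPM, with TBXT at 2 and SOX17 at 4 reads over the series. Mesenchymal and endothelial markers had 4 of 10 higher and 3 lower, with the summed level at 125 to 155 CPM and 177 to 262 CPM. Of these, SELE (0.238 to 1.90 CPM, 3.21 ± 0.60), LUM (1.69), TAGLN (0.88) and PDGFRB (0.66) rose and CDH5 (0.567 to 0.0738 CPM, -2.87 ± 0.65), TEK (-1.68) and PDGFRA (-1.59) fell. Their part in the rise of PTPRB, LOX and the collagen genes was not tested. Non-neural ectoderm markers had 4 of 7 higher (375 to 422 and 427 to 465 CPM), and the basal keratin KRT5 had 4 reads. Astrocyte and oligodendrocyte markers had 2 of 11 higher and 6 lower (1039 to 1055 and 896 to 931 CPM). Neural crest markers had 1 of 6 higher and 2 lower (48.0 to 52.8 and 56.2 to 66.7 CPM), and midbrain and hindbrain markers 3 of 6 higher and 1 lower (24.3 to 25.7 and 32.2 to 35.5 CPM), with EN1 at 1 read. Cortical hem and choroid plexus markers had 1 of 9 higher and 1 lower (748 to 829 and 724 to 871 CPM), with 43 reads of TTR.

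**Figure D5:**
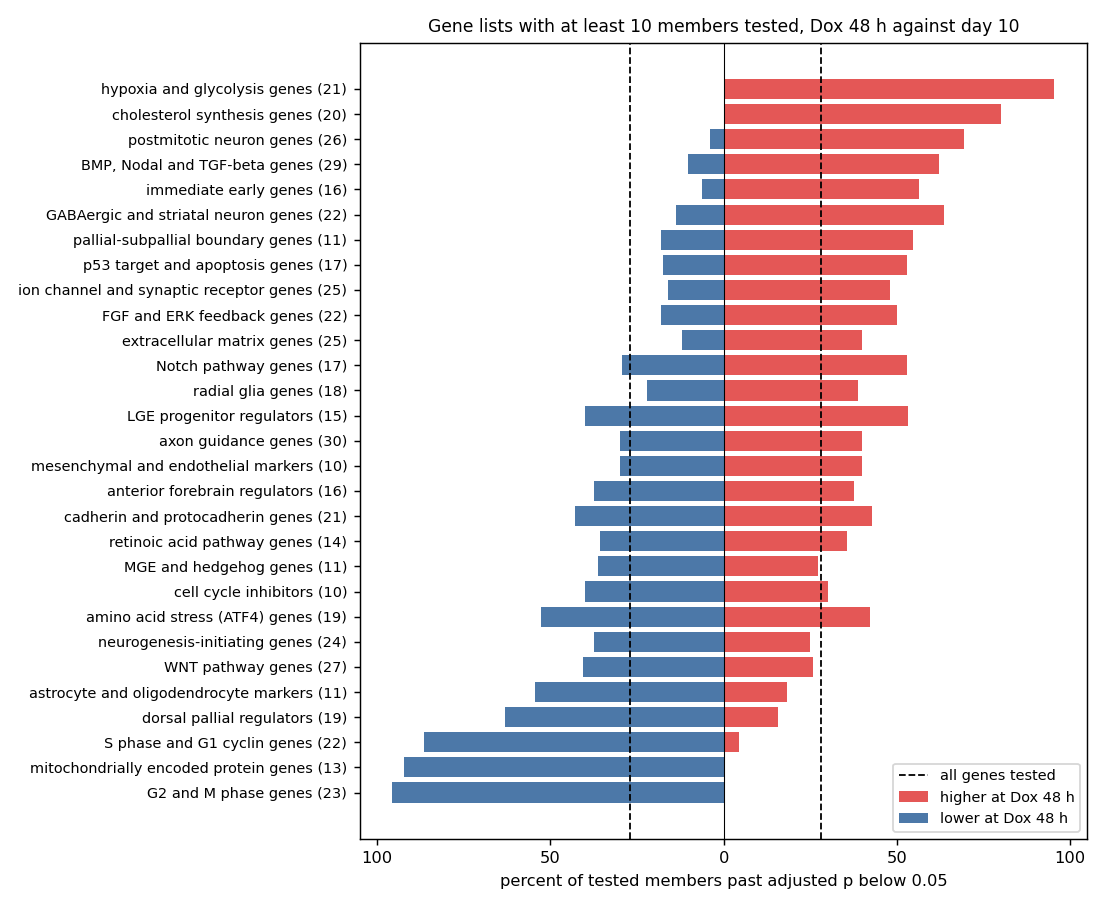
Percent of tested members called higher (right) and lower (left) in Dox 48 h than at day 10, for gene lists with at least 10 tested members, with dashed lines for all genes tested (28.2% higher and 27% lower). Hypoxia and glycolysis, cholesterol synthesis and postmitotic neuron genes extend farthest to the right, and G2 and M phase, mitochondrially encoded and S phase genes farthest to the left.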

How the data were processed

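Counts of 21 RNA-seq libraries, in 7 groups of 3 by their labels, were used. RNA was poly-A selected and the kit directional, per the labels' protocols. Each deposited count is the number of reads assigned to a gene. The submitters' processing notes list STAR 2.7.9, Subread 2.0.3, DESeq2 and hg38, while annotation and strand setting were not given in the sources used here, so antisense and overlapping genes are uncertain. Per the values, the deposited signal table is each count over 1 factor per sample, and it served only as an alternative, as log2(value + 1).

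All groups entered 1 edgeR 4.0.16 model (R 4.3.3; TMM, filterByExpr, robust quasi-likelihood F test, Benjamini-Hochberg adjustment over 19655 genes), which left 14 residual degrees of freedom. Errors after ± are SDs for CPM and, for log2 fold changes, the absolute value divided by the square root of F, an approximate standard error.

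The comparison, its 35 gene lists (8 of them markers of other cells) and the naming rule were chosen with earlier results of these data known. Named genes were GSX2 and the transgene, the 15 largest rises and 15 largest falls (5 and 5 between the arms) past the threshold with a mean of at least 2 CPM, libraries wholly apart and no clone-style name, up to 4 members of each list by size with other members given as values, and the 8 largest of the genes that moved in opposite directions in the arms. Alternatives were size factors or the Wald test of DESeq2 1.42.0, library totals, no filter, limma 3.58.1 on the deposited signal, a fit of only the compared groups, a replicate block, a threshold on the fold change, and leaving out each replicate. For list counts, library totals in the comparisons that involve NoDox 48 h, and leaving out replicates beyond day 10 replicate 1, were chosen after seeing the data. Values of some named genes are not reported here. Promoters came from RefSeq (GRCh38.p14), matched by symbol. Tested on simulated data for Dox 48 h against day 10 (19141 genes), the fit recovered 98% of genes changed by a log2 fold change of 1. At 2 it recovered 100%, with 8 false calls among 18941 unchanged genes. The simulation changed 100 genes at each size, up or down at random, all with a mean of at least 2 CPM. In the data 55.2% of genes were called, so it does not speak for changes that wide, nor for lower counts.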

Additional observations from a re-analysis of the deposited data

Results flagged for a closer look

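In 8 genes the change from day 10 went up in one arm and down in the other, and edgeR's quasi-likelihood test between Dox 48 h and NoDox 48 h passed. Such genes numbered 77 of the 19655 tested. These 8 are the largest by that difference among those with a mean of at least 2 CPM in 1 group. SPINK5, a serine protease inhibitor, averaged 4.42 CPM at day 10, 10.5 CPM in NoDox 48 h and 1.25 CPM in Dox 48 h, a difference between the arms of -3.04. BRINP2, a neuronal inhibitor of proliferation, averaged 2.74, 4.93 and 0.642 CPM (-2.91), and CALB1, a calcium-binding protein of neuron subtypes, 3.69, 7.33 and 1.78 CPM (-2.03). The protocadherin PCDH20 averaged 3.44, 9.19 and 2.31 CPM (-1.98), and LINGO2, a neuronal membrane protein, 3.26, 6.68 and 2.03 CPM (-1.72). The growth factor FGF18 averaged 1.53, 2.88 and 0.872 CPM (-1.71), and the ligand WNT4 2.30, 3.59 and 1.17 CPM (-1.62). These 7 genes were lower than day 10 with the pulse and higher without it. By the rule that chose them, Dox 48 h is therefore the lowest of the 3 groups given.

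COL23A1, a membrane collagen, went the other way, with means of 1.58, 0.867 and 2.74 CPM and a difference of 1.66. Its Dox 48 h libraries read 4.00, 2.71 and 1.52 CPM, so the lowest overlapped day 10. The call of COL23A1 and of FGF18 against day 10 was lost without Dox 48 h replicate 1 or day 10 replicate 3, and that of PCDH20 without Dox 48 h replicate 1 or 3 or day 10 replicate 2 or 3.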

How the results depend on the processing

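No gene followed through the alternatives changed the sign of its fold change. For Dox 48 h against day 10 these were the genes named by the rule and the list members past the threshold. Between the arms they were GSX2, the transgene and the genes named by the rule that passed there. List members that did not pass were not followed. For Dox 48 h against day 10, each replicate left out gave 4748 to 5415 genes higher and 4818 to 5073 lower, DESeq2's Wald test 5449 and 5343, no filter 5192 and 5233, only the compared groups 4811 and 5085, library totals 3765 and 7169, and the test against a log2 fold change of 1 gave 328 and 255. Of the named genes and list members past the threshold, 54 lost their call with library totals and 26 to 30 with a replicate left out. For Dox 48 h against NoDox 48 h, each replicate left out gave 1041 to 1640 higher and 1195 to 1662 lower (1041 without NoDox 48 h replicate 2, 1056 without Dox 48 h replicate 1), library totals 1017 and 2835, and the test against a log2 fold change of 1 gave 8 and 20. NoDox 48 h against day 10 ran from 3490 to 4268 higher and 3248 to 3943 lower with a replicate left out, and 107 and 22 against a log2 fold change of 1. Dox 48 h against NoDox 12 h gave 5803 to 6153 and 5760 to 6071 with a replicate left out and 791 and 885 against a log2 fold change of 1. Against NoDox 24 h these were 4684 to 4938 and 4610 to 4818, and 174 and 255, and 3393 were higher with library totals. Testing against that fold asks for a larger change by construction, and the cause of the other shifts was not tested.

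The main fit did not pair samples by replicate number. Residuals of day 10 and Dox 48 h libraries of the same number correlated by 0.0386, -0.00333 and 0.0805. In that comparison not every library correlated best with its own number. Between Dox 48 h and NoDox 48 h the same-number values were 0.067, 0.0284 and 0.03, and unlike numbers gave at most 0.014. Each Dox 48 h library also correlated best with its own number in NoDox 12 h and in NoDox 24 h. The cause of these small correlations was not tested. With a replicate block, Dox 48 h against day 10 gave 5576 higher and 5302 lower, against NoDox 48 h 1893 and 1823, against NoDox 12 h 6499 and 6189, against NoDox 24 h 5444 and 5138, and NoDox 48 h against day 10 gave 4250 and 3983. Depth limits genes near 0.132 to 0.211 CPM, the level of 3 counts.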

Other observations

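Gene families outside the lists, chosen after results were seen, were counted from day 10 to Dox 48 h, beside 28.2% higher and 27% lower over all genes tested. Of 82 cytosolic ribosomal protein genes tested, 77 were higher and 2 lower, with a median log2 fold change of 0.54. These genes have many near-identical pseudogenes, so their counts are uncertain. The NoDox 48 h cultures had 31 of them higher and 1 lower than day 10, and this 31 was 74 without day 10 replicate 1, 8 to 13 without day 10 replicate 2 or 3 or NoDox 48 h replicate 1 or 2, and 17 with library totals. Of 21 centromere protein genes 18 were lower, with a median of -0.67. Of 37 kinesins 7 were higher and 18 lower, and 17 were lower than in NoDox 48 h.

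Of 65 motile cilium genes 26 were lower and 8 higher (5 with library totals), with a median of -0.37. Histone genes were higher in 16 of 35 and lower in 3. Of 36 proteasome subunit genes 3 were higher (7 without day 10 replicate 1, 0 with library totals) and 17 lower. Of 465 ZNF zinc finger genes 102 were higher (56 with library totals) and 172 lower, with a median of -0.10.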
